A study of Mus musculus with 6 samples.

Results

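The 10 cytokine receptor chain genes described are Il4ra, Il13ra1, Il2rg, Il21r, Il10ra, Il10rb, Il6ra, Il6st, Il17ra and Csf3r. They were taken by symbol, as a list with no threshold on a measured value, from tables that hold 23664 genes. The cells were lamina propria eosinophils taken from wild-type mice of the BALB/c strain, from the small intestine. One group of 3 cultures received GM-CSF at 10 ng/ml and the other group of 3 cultures was not treated, with 4 hours in culture for both groups. The cultures were run in triplicate, and the labels do not tie them to different mice. The p-values therefore measure only how these cultures varied, which may be technical. The sources do not describe how the cells were purified.

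Receptors of this kind have no enzyme activity of their own. Most, though not all, are built from a chain that binds the cytokine and a partner chain that is often shared between several cytokines. JAK kinases bound to the chains pass the signal to STAT transcription factors. IL-4 and IL-13, the type 2 cytokines, act through the IL-4 receptor alpha chain, joined by the common gamma chain or by the IL-13 receptor alpha chain, and the STAT they chiefly activate is STAT6. The IL-17 receptor belongs to a separate family that signals through TRAF adaptors. Eosinophils of the gut are resident cells of type 2 immunity, and GM-CSF acts on them through Csf2ra and the beta chain Csf2rb.

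The 6 libraries held between 0.820 and 1.32 gigabases of mapped sequence each. Values are FPKM, fragments scaled to transcript length and to the mapped fragments of the library, so that levels of different genes can be set side by side. The test took in every gene whose 6 libraries averaged 1 FPKM or more, and used limma on log2(FPKM + 1), with p-values adjusted by the Benjamini-Hochberg method over all 10136 of them. Of these, 2208 passed at an adjusted p under 0.05, which is 21.8%, with 771 higher (7.61%) and 1437 lower (14.2%) in GM-CSF libraries. With median-of-ratios scaling the split was 1074 higher and 968 lower, and the median over all genes moved to 0.01, against -0.05 on the log2 scale without it. Eosinophil markers were present: Siglec5, the files' symbol for the eosinophil lectin Siglecf, averaged 170 FPKM in both groups, and the eotaxin receptor gene Ccr3 averaged 251 ± 22.8 FPKM in GM-CSF and 289 ± 24.5 FPKM in untreated libraries (SD, n = 3 each). Neither passed, but of 8 tested eosinophil markers 1 rose, 4 fell and 3 did not pass, with a median log2 fold change of -0.37. Siglec5 and Ccr3 therefore do not stand for the list. Its highest marker was Alox15, which averaged 309 FPKM over all libraries. The sum of the 12 markers in the files was 742 to 846 FPKM with GM-CSF and 1132 to 1315 FPKM untreated, and its part in the receptor chain values was not tested.

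GM-CSF cultures held more RNA of the chains that bind IL-4, IL-13 and IL-10, while the shared partner chains Il2rg and Il10rb, the most abundant of the 10 in untreated cells, did not pass the test. Of the 10 genes, 7 were abundant enough to be tested. Il10ra, Il4ra and Il13ra1 rose, Il17ra fell, and Il2rg, Il10rb and Csf3r did not pass. The median log2 fold change of the 7 was -0.14, against -0.05 over all genes tested. Il6ra, Il21r and Il6st lay below the filter. In libraries of cell mixtures, fewer cells of a type and less RNA per cell cannot be told apart.

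In order of mean level, the GM-CSF libraries had Il10rb first, then Il10ra and Il2rg, whose ranges overlapped, then Il13ra1 and Il4ra, which also overlapped, then Il17ra and Csf3r. Il21r and Il6ra followed with overlapping ranges, and Il6st was last. In the untreated libraries the order was Il10rb, Il2rg, Il10ra, Il17ra, Il13ra1, Il4ra, Csf3r, Il6ra, Il21r and Il6st, and only the ranges of the neighbours Il6ra and Il21r overlapped. Il10ra ranked 721st of the 23664 genes by mean FPKM in GM-CSF libraries and 2337th in untreated ones. Il4ra ranked 4198th in GM-CSF libraries and 6346th in untreated ones.

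**Figure D1:**
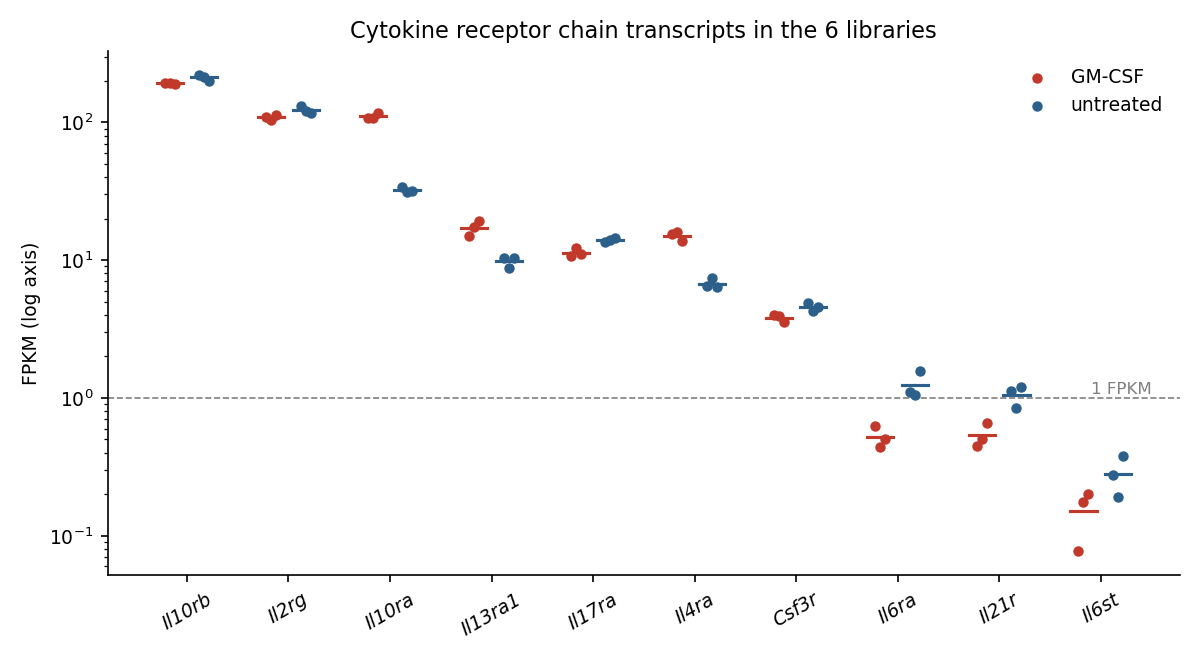
FPKM of the 10 receptor chain genes on a log axis, in order of their mean over all libraries. Each point is 1 library, GM-CSF in red and untreated in blue, and the short lines are means of 3. The GM-CSF points of Il10ra lie between 108 and 117 FPKM, and its untreated points between 31.4 and 33.9 FPKM.

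Promoter sequence is shown for the 3 chains that make up the receptors of IL-4 and IL-13, because 2 of them rose and the third did not pass. Each is the 250 bases before the annotated start of the gene, from RefSeq on the GRCm38.p6 reference of C57BL/6J mice, while the cells were from BALB/c mice. Il4ra lies on the plus strand at chr7:125552021-125552270, Il13ra1 on the plus strand at chrX:36111858-36112107 and Il2rg on the minus strand at chrX:101268256-101268505. Capitals mark matches to the motifs described next.
Il4ra: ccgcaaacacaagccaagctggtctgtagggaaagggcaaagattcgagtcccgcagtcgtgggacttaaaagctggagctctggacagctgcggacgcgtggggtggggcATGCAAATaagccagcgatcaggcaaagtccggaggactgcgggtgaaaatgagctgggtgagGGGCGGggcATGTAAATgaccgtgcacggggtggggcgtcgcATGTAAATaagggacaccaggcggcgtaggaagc
Il13ra1: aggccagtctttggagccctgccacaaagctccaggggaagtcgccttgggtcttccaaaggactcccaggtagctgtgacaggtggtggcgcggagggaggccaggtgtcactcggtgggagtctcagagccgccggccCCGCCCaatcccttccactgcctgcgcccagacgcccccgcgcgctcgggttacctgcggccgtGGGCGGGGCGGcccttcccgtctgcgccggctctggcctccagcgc
Il2rg: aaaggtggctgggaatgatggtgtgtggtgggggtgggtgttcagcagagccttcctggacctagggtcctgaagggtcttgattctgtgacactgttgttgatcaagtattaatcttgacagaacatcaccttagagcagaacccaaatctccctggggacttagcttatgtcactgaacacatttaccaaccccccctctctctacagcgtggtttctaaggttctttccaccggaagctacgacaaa

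The 2 spacings of STAT elements were searched first, TTCNNNGAA, which STAT5 binds, and the form with 4 bases between TTC and GAA, which STAT6 prefers, on both strands. Neither was found in these windows, nor in those of Il6ra, Il6st, Il21r and Csf3r, the other genes with an entry in the promoter table. The windows of Il21r and Csf3r precede start sites that lie inside the gene positions given here, so they are not the bases before those positions. Il10ra, Il10rb and Il17ra had no entry. Over all 32851 promoter windows of the table, 7.02% held the first and 5.85% the second. The GC box GGGCGG, found in 32.7% of windows, occurred once before Il4ra and 3 times before Il13ra1, where the last matches overlap by a base, and was not found before Il2rg. In 8.47% of all windows it occurred 3 times or more. The octamer ATGCAAAT occurred once before Il4ra, 139 to 132 bases upstream of the start, and in 1.6% of all windows. With any base in its 4th place (ATGNAAAT, a motif chosen after this sequence was read, which includes the octamer), Il4ra had 3 matches, a number reached by 12 of the 32851 windows. G and C made up 59.6% of the bases before Il4ra, 70.8% before Il13ra1 and 49.2% before Il2rg. A match is a description of letters and does not show that a factor binds there.

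Il4ra encodes the chain that every IL-4 receptor contains and that IL-13 uses too (chromosome 7, 125552271 to 125579474, GRCm38). It measured 15.4, 15.9 and 13.7 FPKM in the GM-CSF libraries, against 6.49, 7.39 and 6.38 FPKM in the untreated libraries. Every GM-CSF library was above every untreated one. The means were 15.0 ± 1.19 FPKM with GM-CSF and 6.75 ± 0.555 FPKM untreated (SD, n = 3 each), a ratio of 2.23. The log2 fold change was 1.05 (SE 0.08, limma adjusted p = 0.000309). The values rested on 57.1 to 107.6 kilobases of aligned sequence per GM-CSF library and 29.8 to 36.7 kilobases per untreated library.

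Il13ra1 encodes the chain that joins Il4ra in the receptor used by both IL-4 and IL-13 (chromosome X, 36112108 to 36171262). It measured 15.0, 17.5 and 19.1 FPKM in GM-CSF libraries, against 10.4, 8.75 and 10.4 FPKM in untreated ones. The groups did not overlap, and the ratio of means was 1.75. The log2 fold change was 0.74 (SE 0.10, limma adjusted p = 0.00356), with a 95% interval of 0.49 to 0.99 that overlaps the interval of Il4ra, 0.85 to 1.24. Il13ra2, the gene of the other IL-13 binding chain, known as a decoy, was listed at 0 in all 6 libraries.

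Il2rg encodes the common gamma chain, which pairs with Il4ra in blood cells and also serves the receptors of IL-2, IL-7, IL-9, IL-15 and IL-21 (chromosome X, 101264385 to 101268255). It measured 109, 103 and 113 FPKM with GM-CSF, against 132, 122 and 117 FPKM untreated. All GM-CSF values were below all untreated ones, by a small margin. The log2 fold change was -0.19 (SE 0.06, limma adjusted p = 0.0728), which did not pass. The 95% interval of -0.33 to -0.04, not adjusted for the number of genes, leaves room for a small difference. With median-of-ratios scaling the log2 fold change was -0.11, with a limma adjusted p of 0.303.

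The level of Il2rg was set against those of its partner chains within each library. Il2rg RNA exceeded Il4ra RNA 7.06-, 6.46- and 8.28-fold in GM-CSF libraries, against 20.4-, 16.5- and 18.3-fold in untreated libraries. Il2rg exceeded Il13ra1 7.25-, 5.91- and 5.94-fold with GM-CSF, against 12.7-, 13.9- and 11.3-fold untreated. Neither set of ratios overlapped between the groups. The log2 ratio of Il4ra over Il2rg was higher by 1.34 and that of Il13ra1 over Il2rg by 0.99 in GM-CSF libraries, each with p = 0.1 in an exact two-sided permutation test, the smallest p that 3 against 3 libraries can give. Adjusted over the 7 chain ratios compared, these p-values were 0.14, so neither ratio passed. Il4ra over Il13ra1 was 1.03, 0.914 and 0.717 in GM-CSF libraries, against 0.622, 0.844 and 0.615 in untreated libraries, and the groups overlapped (difference of 0.35 on the log2 scale, exact permutation p = 0.2, adjusted p = 0.233).

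**Figure D2:**
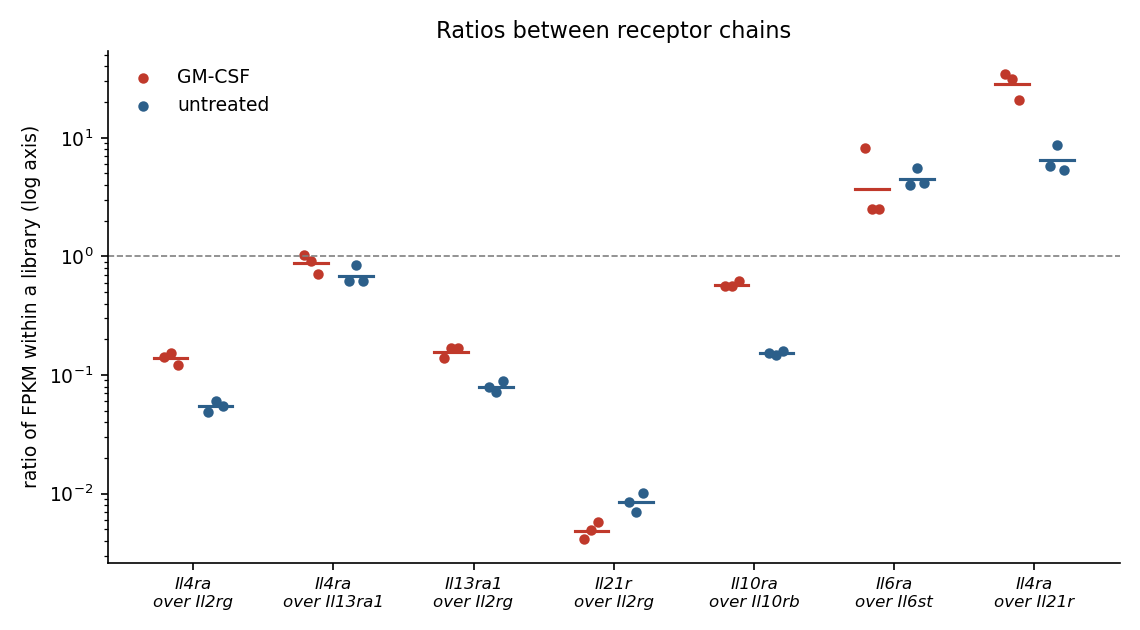
Ratio of FPKM between 2 chains within each library, on a log axis, GM-CSF in red and untreated in blue; lines are geometric means of 3. Points of Il10ra over Il10rb lie between 0.558 and 0.616 with GM-CSF and between 0.146 and 0.159 untreated, while those of Il4ra over Il13ra1 and of Il6ra over Il6st overlap between the groups.

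Il21r encodes the ligand-binding partner of the common gamma chain in the IL-21 receptor, known mainly from lymphocytes. It lies next to Il4ra in the same orientation (chromosome 7, 125603252 to 125634397), with 23777 bases between the genes. It measured 0.448, 0.505 and 0.656 FPKM in GM-CSF libraries, against 1.12, 0.845 and 1.19 FPKM in untreated libraries, with no overlap. These values rested on only 1.04 to 2.85 kilobases of aligned sequence per library, and the mean over all libraries, 0.795 FPKM, kept the gene below the filter. With no filter on low values the fit took in 18036 genes, of which 4.04% passed as higher and 6.63% as lower, and Il21r had a log2 fold change of -0.42 (SE 0.09, limma adjusted p = 0.0451). Il2rg exceeded Il21r 244-, 204- and 173-fold with GM-CSF, against 118-, 144- and 97.9-fold untreated (difference of -0.79 in the log2 ratio of Il21r over Il2rg, exact permutation p = 0.1, adjusted p = 0.14). With 1 FPKM added to each chain this difference was -0.23. Il4ra over Il21r was 34.5, 31.6 and 20.9 in GM-CSF libraries, against 5.79, 8.74 and 5.34 in untreated libraries, so the neighbouring genes differed in opposite directions (difference of 2.13 on the log2 scale, exact permutation p = 0.1, adjusted p = 0.14).

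Lymphocyte markers moved in the direction of Il21r. The summed level of 9 T cell markers was 16.5 to 19.5 FPKM in GM-CSF libraries and 29.4 to 31.3 FPKM in untreated libraries, with 4 of 5 tested markers lower by limma. The sum of 8 B and plasma cell markers was 27.3 to 28.9 FPKM with GM-CSF and 47.2 to 54.2 FPKM untreated, and all 6 tested markers fell. No marker of either list was at 0 in all libraries. Their part in the values of Il21r and Il2rg was not tested.

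Il10ra encodes the chain that binds IL-10, a cytokine that restrains inflammation in the gut (chromosome 9, 45253837 to 45269149). It measured 108, 108 and 117 FPKM in GM-CSF libraries, against 33.9, 31.4 and 31.8 FPKM in untreated libraries. The lowest GM-CSF value was over 3 times the highest untreated one. The means were 111 ± 5.51 FPKM with GM-CSF and 32.4 ± 1.38 FPKM untreated (SD, n = 3 each), a ratio of 3.43. The log2 fold change was 1.75 (SE 0.05, limma adjusted p = 8.15e-06). Of all genes tested, 46, or 0.454%, rose by as much or more.

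Il10rb encodes the signalling partner in the IL-10 receptor, which is shared with the receptors of IL-22 and the lambda interferons (chromosome 16, 91406157 to 91425834). It was the most abundant of the 10 genes, with 193, 192 and 191 FPKM in GM-CSF libraries, against 222, 214 and 200.5 FPKM in untreated ones. The groups did not overlap, yet the log2 fold change of -0.14 (SE 0.05, limma adjusted p = 0.0744) did not pass. Without untreated replicate 3 it did, at -0.18 with a limma adjusted p of 0.0309, while median-of-ratios scaling brought it to -0.07 with a limma adjusted p of 0.447. Il10rb RNA exceeded Il10ra RNA 1.79-, 1.78- and 1.62-fold in GM-CSF libraries, against 6.53-, 6.83- and 6.31-fold in untreated libraries. The log2 ratio of Il10ra over Il10rb was higher by 1.92 with GM-CSF (exact permutation p = 0.1, adjusted p = 0.14).

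**Figure D3:**
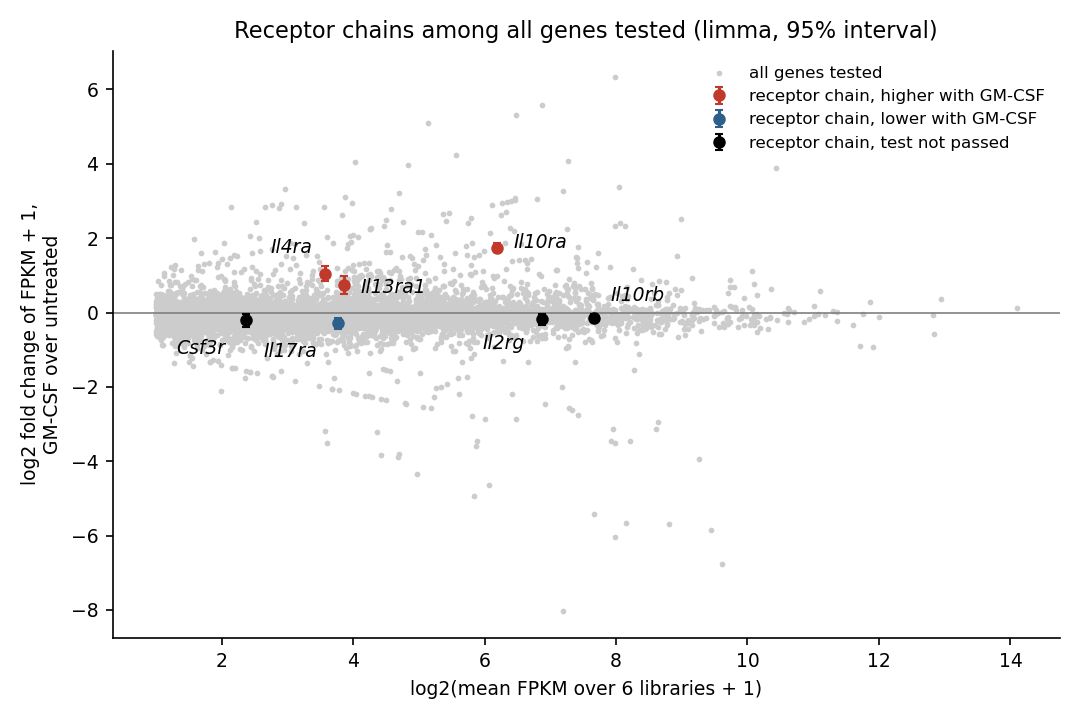
Log2 fold change of FPKM + 1, GM-CSF over untreated, against the log2 mean level, for all 10136 genes tested (grey) and the 7 tested receptor chains, with 95% intervals from limma. Il10ra at 1.75, Il4ra at 1.05 and Il13ra1 at 0.74 lie above the bulk of the genes, and Il17ra, Il2rg, Il10rb and Csf3r between -0.29 and -0.14.

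Both chains of the IL-6 receptor were scarce. Il6ra encodes the chain that binds IL-6 (chromosome 3, 89869324 to 89913196), and it measured 0.631, 0.441 and 0.503 FPKM with GM-CSF, against 1.11, 1.05 and 1.56 FPKM untreated. The groups did not overlap and the ratio of means was 0.423. Its mean of 0.883 FPKM lay below the filter, and with no filter the log2 fold change was -0.55 (SE 0.11, limma adjusted p = 0.0309). A pseudocount of 1 weighs heavily at this level. Il6st encodes gp130, the signalling chain shared by IL-6, IL-11, LIF and oncostatin M (chromosome 13, 112464070 to 112506860), and was the lowest of the 10 genes. It measured 0.0770, 0.176 and 0.201 FPKM with GM-CSF, against 0.277, 0.190 and 0.378 FPKM untreated, and these ranges overlapped. Between 0.374 and 1.89 kilobases of aligned sequence per library stood behind it, and with no filter the adjusted p was 0.257 (limma, log2 fold change -0.15, SE 0.07). Il6ra over Il6st was 8.19, 2.51 and 2.51 in GM-CSF libraries, against 4.00, 5.51 and 4.14 in untreated ones, and the groups overlapped (difference of -0.28 on the log2 scale, exact permutation p = 0.6, adjusted p = 0.6). With 1 FPKM added to each chain the difference was -0.40, with an exact permutation p of 0.1, the smallest possible, so the outcome for these low genes depends on the scale.

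With Il6ra and Il21r counted, 6 genes of the 10 had all GM-CSF values below all untreated ones, and 3 had them above, while Il6st overlapped. Among the 18036 genes above 0 in any library, 18.7% had GM-CSF below and 8.78% had GM-CSF above in this way. In the fit with no filter, 3 of the 10 passed as higher, 3 as lower (Il6ra, Il17ra and Il21r) and 4 did not pass. Of all 18036 genes in that fit, 4.04% passed as higher and 6.63% as lower.

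Il17ra encodes the chain common to the receptors of IL-17A, IL-17F and IL-25 (chromosome 6, 120463181 to 120483731). It measured 10.7, 12.2 and 11.0 FPKM in GM-CSF libraries, against 13.6, 14.1 and 14.5 FPKM in untreated ones. The groups did not overlap and the ratio of means was 0.806. The log2 fold change was -0.29 (SE 0.06, limma adjusted p = 0.0180). The fold change stayed between -0.34 and -0.26 when 1 library was left out, but the call ended in 4 of these 6 fits. The limma adjusted p was 0.0620 without untreated replicate 2, 0.0582 without untreated replicate 3, 0.0620 without GM-CSF replicate 1 and 0.0571 without GM-CSF replicate 3. The call held with an adjusted p of 0.0164 without GM-CSF replicate 2 and of 0.0405 when untreated replicate 1 was left out. Its partner chains were low in both groups. Il17rb averaged 0.157 FPKM with GM-CSF and 0.338 FPKM untreated, and Il17rc averaged 0.0671 FPKM with GM-CSF and 0.134 FPKM untreated; none of the 4 partner genes reached the filter.

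Csf3r encodes the G-CSF receptor, known best from neutrophils (chromosome 4, 126023441 to 126044975). The gene measured 4.00, 3.91 and 3.53 FPKM in GM-CSF libraries, against 4.85, 4.30 and 4.57 FPKM in untreated ones. All GM-CSF values were lower, with a log2 fold change of -0.21 (SE 0.08, limma adjusted p = 0.0996) that did not pass. It was the one gene of the 10 with several transcripts in the tables. The transcript NM_007782 took 46.8%, 57.9% and 91.7% of the gene's FPKM with GM-CSF, against 43.2%, 79.5% and 69.0% untreated. The shorter transcript NM_001252651 took 53.2%, 42.1% and 8.31% with GM-CSF, against 19.7%, 20.5% and 31.0% untreated. The noncoding NR_045561 held 37.0% in untreated replicate 1 and at most 0.0153% in every other library. The shares varied as widely within groups as between them (exact permutation p of 0.6 for NM_001252651, 0.9 for NM_007782 and 0.8 for NR_045561, 0.9 for each adjusted over the 3), so only the gene sum is read. The summed level of 10 neutrophil markers was 1152 to 1181 FPKM with GM-CSF and 1382 to 1497 FPKM untreated, nearly all of it Retnlg, while Camp and Elane were at 0 in all libraries. Of 6 tested neutrophil markers, 1 rose, 2 fell and 3 did not pass. The part of neutrophil RNA in Csf3r was not tested.

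Most ligand genes of these receptors were rare in the cultures, and Il4, Il27 and Osm were the most abundant of them in both groups. Il4 measured 222, 245 and 199.7 FPKM in GM-CSF libraries, against 219, 214 and 164 FPKM in untreated libraries (log2 fold change 0.17, SE 0.13, limma adjusted p = 0.421). Of 20 ligand genes found in the files 5 were tested. The IL-27 subunit gene Il27 rose by 1.34 on the log2 scale (26.6, 27.5 and 23.7 FPKM with GM-CSF, against 10.8, 10.6 and 7.81 FPKM untreated; limma adjusted p = 0.000653). Il15, whose product signals through the common gamma chain, rose by 0.91 (2.82 ± 0.561 FPKM with GM-CSF and 1.03 ± 0.257 FPKM untreated, SD, n = 3 each; limma adjusted p = 0.00581). Il4, Il11 and Osm did not pass. Il13 lay below the filter, at 1.41, 1.03 and 1.27 FPKM with GM-CSF, against 0.382, 0.442 and 0.117 FPKM untreated, without overlap, and was not tested. Il10 was also below it, at 0.0733, 0.246 and 0.0398 FPKM with GM-CSF, against 0.486, 0.636 and 0.391 FPKM untreated.

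Of the kinases and factors that carry these signals, 1 rose. Jak2, which binds the GM-CSF receptor beta chain and gp130, measured 73.0, 78.7 and 82.1 FPKM with GM-CSF, against 34.8, 34.4 and 39.7 FPKM untreated (log2 fold change 1.08, SE 0.07, limma adjusted p = 0.000162). Jak1, which binds Il4ra, Il10ra and gp130, fell by 0.33 (80.8 ± 1.01 FPKM with GM-CSF and 102 ± 4.73 FPKM untreated, SD, n = 3 each; limma adjusted p = 0.00296). The other 2 JAK genes, Jak3, which binds the common gamma chain, and Tyk2, which binds Il10rb, did not pass. Of 7 STAT genes, 3 fell: Stat3, the main STAT of IL-10 and IL-6, by 0.25, Stat4 by 0.23 and Stat6 by 0.19 (limma adjusted p of 0.00600, 0.0246 and 0.0239). Stat6 averaged 96.9 ± 1.21 FPKM with GM-CSF and 110 ± 4.75 FPKM untreated (SD, n = 3 each). The other 4 did not pass. Median log2 fold changes were -0.19 for the JAK genes and -0.06 for the STAT genes. Small falls depend on the scaling. With median-of-ratios scaling, 968 genes passed as lower in place of 1437. Among the receptor chains, Il2rg then moved from -0.19 to -0.11, while Il17ra moved from -0.29 to -0.22 and still passed. Whether the falls of Jak1, Stat3, Stat4 and Stat6 hold with that scaling was not tested.

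Genes that shed the chains or restrain their signals were tested as a list of 16, of which 5 rose, 2 fell and 9 did not pass, with a median of 0.05. The rises were led by the SOCS family, whose products block JAKs and receptor tyrosines: Socs1 averaged 88.6 ± 18.1 FPKM with GM-CSF and 3.77 ± 1.16 FPKM untreated, Socs3 45.7 ± 1.31 FPKM with GM-CSF and 4.01 ± 0.248 FPKM untreated, and Cish 157 ± 3.41 FPKM with GM-CSF and 17.9 ± 2.55 FPKM untreated (SD, n = 3 each). The sheddase genes Adam10 and Adam17, whose products cleave the IL-6 receptor, did not pass.

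**Figure D4:**
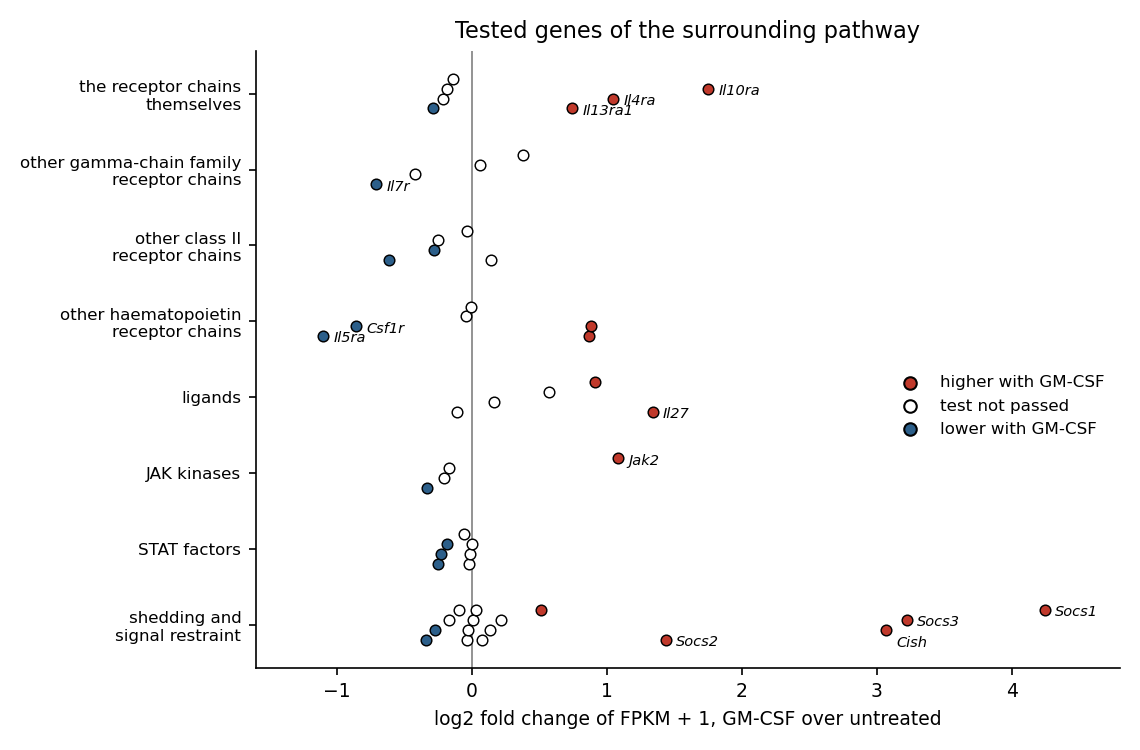
Log2 fold change of FPKM + 1, GM-CSF over untreated, of each tested gene in the receptor, ligand and signalling lists; each point is a gene, red where it passed as higher, blue as lower and white where it did not pass. Il10ra, Il4ra and Il13ra1 stand among the receptor chains at 1.75, 1.05 and 0.74, and Socs1, Socs3 and Cish lie at 4.24, 3.22 and 3.07.

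Genes that the ligands of these receptors are known to induce, and for IL-17 also genes of the receptor's signalling, moved gene by gene. Of 7 tested IL-4 and IL-13 response genes, 3 rose and 1 fell: Socs1 and Cish, also known targets of GM-CSF, the transcription factor gene Egr2 (66.3 ± 5.85 FPKM with GM-CSF and 44.6 ± 2.05 FPKM untreated, SD, n = 3 each; log2 fold change 0.56), and downwards Retnla, a classical product of IL-4-stimulated mouse macrophages (-0.56). Of 9 IL-10 response genes, 4 rose and 1 fell, among them Socs3, the transcription factor gene Nfil3 (77.8 ± 3.24 FPKM with GM-CSF and 31.6 ± 0.474 FPKM untreated, SD, n = 3 each) and Il4ra itself, which is a member of that list. Of 10 IL-6 and G-CSF response genes, 4 rose and 2 fell, led by Socs3, the kinase gene Pim1 (1.36) and Cebpb (0.64). Of 13 tested genes in the IL-17 list, which holds both signalling and target genes, 4 rose and 9 did not pass. The adaptor gene Traf6 averaged 24.3 ± 0.977 FPKM with GM-CSF and 10.3 ± 0.781 FPKM untreated (SD, n = 3 each; log2 fold change 1.17, limma adjusted p = 9.25e-05), and Traf3 rose by 0.45. Median log2 fold changes were 0.16, 0.57, -0.01 and -0.01 for these lists in the order given. Over all genes tested, 7.61% rose and 14.2% fell. Socs3 and Cebpb each stand in more than 1 of these lists. Whether any of these ligands acted in the cultures was not tested.

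Chains of the GM-CSF receptor and its relatives were compared beside the 10 genes. The beta chain gene Csf2rb had a log2 fold change of 0.87, between those of Il13ra1 and Il4ra, and its near copy Csf2rb2 had 0.88, though reads common to both copies make their separate levels uncertain. Csf2ra did not pass (-0.04), and Il5ra, the IL-5 binding chain and also a member of the eosinophil marker list, fell by 1.10. Of 6 tested genes in this list 2 rose, 2 fell and 2 did not pass.

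For the 3 chains that rose, the genes with the most similar course over the 6 libraries were found by the root mean square difference of log2(FPKM + 1), each gene centred on its own mean. Closest to Il10ra were Treml2 (difference 0.0584), Nek6 and Emilin2. Closest to Il4ra were Cdh3 (0.0569), Tbc1d8 and Pdgfra, and closest to Il13ra1 were Zfp90 (0.0420), Pdp1 and the formyl peptide receptor gene Fpr2. All of them passed as higher with GM-CSF, and the measure rewards a fold change of the same size. Cdh3 was low, at 2.20 FPKM with GM-CSF and 0.596 FPKM untreated, and the 1 FPKM added weighs heavily at that level.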

How the data were processed

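Polyadenylated RNA of 3 cultures with GM-CSF and 3 without was sequenced from stranded libraries, per the labels' protocols. Tools listed in the submitters' processing notes are TopHat, TopHat2, Cufflinks and bcl2fastq 1.8.4, with mm10 as the build. Each of the 6 tables lists 30374 RefSeq transcripts with FPKM, signal coverage and length, per the file headers. The FPKM deposited by the authors were summed per symbol and locus. Coverage, as deposited, gave the mapped gigabases (coverage over FPKM) and the aligned bases behind a gene (coverage times length). No read counts were used. The sources leave unstated how a read matching more than one transcript or copy was assigned.

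Gene sums with a mean of at least 1 FPKM were fitted as log2(FPKM + 1) with limma 3.58.1 in R 4.3.3 (empirical Bayes with a trend, two-sided, Benjamini-Hochberg, threshold 0.05), after a test on simulated data. The log scale understates changes of low genes. Chain ratios and transcript shares were compared with exact permutation tests (scipy 1.17.1). The 10 genes, 13 pathway lists, 9 marker lists and named genes (up to 3 per pathway list, and Csf2ra, Csf2rb, Csf2rb2 and Il5ra) were chosen with earlier results of these data known. Il4, Il10, Il11, Il13, Osm, Jak3, Tyk2, Retnla, Adam10, Adam17, Il13ra2, Crlf2, Il2rb, Il15ra, Ifngr1, Ifngr2, F3, Siglec5 and Ccr3 fall outside that choice of named genes and were named after their values were seen. Gene positions and promoters are RefSeq's on GRCm38.p6. Protein sequences were not used here.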

Additional observations from a re-analysis of the deposited data

How the results depend on the processing

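The rises of Il10ra, Il4ra and Il13ra1 passed under all 14 alternatives, with log2 fold changes of 1.71 to 1.82, 1.01 to 1.14 and 0.67 to 0.83. Leaving out 1 library gave -0.34 to -0.26 for Il17ra, whose call ended in 4 of these fits, and -0.18 to -0.11 for Il10rb, which passed in 1. Median-of-ratios scaling gave -0.07 for Il10rb and -0.11 for Il2rg. A pseudocount of 0.1 gave -1.09 for Il6ra, -0.86 for Il21r and -0.61 for Il6st. For the ratio of Il6ra over Il6st, the difference of -0.28 turned to 0.0094 without GM-CSF replicate 2 or 3, and the lowest value without 1 library was -0.84. With 1 FPKM added to each chain it was -0.40, and that of Il21r over Il2rg -0.23 in place of -0.79. Among Csf3r transcripts, the difference in the share of NM_007782 turned to -8.76 points without untreated replicate 1 and to -11.5 points without GM-CSF replicate 3, with a highest value of 10.9 points, and that of NR_045561 to 0.00633 points without untreated replicate 1, with a lowest value of -18.5 points. The labels do not say whether cultures of the same number were set up as pairs. Deviations of same-numbered libraries correlated at -0.03, 0.05 and -0.02, which cannot show how the cultures were set up. With the number as a replicate block 1990 genes passed, and no call of the receptor chains changed (Il10ra 1.75, Il17ra -0.29; Il17ra adjusted p = 0.0359). Genes passing numbered 1515 to 1786 without 1 library. Why these values moved was not tested. Depth limits Il6st, Il21r and Il6ra most.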

Other observations

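Receptor chains outside the 10 genes also differed between the groups. Of 5 tested chains related to the IL-10 receptor, the type I interferon receptor genes fell: Ifnar2 measured 91.5, 94.4 and 87.7 FPKM with GM-CSF, against 146, 140 and 133 FPKM untreated (log2 fold change -0.61, SE 0.05, limma adjusted p = 0.000375), and Ifnar1 fell by 0.28. The interferon gamma receptor genes Ifngr1 and Ifngr2 and F3 did not pass. Of 4 tested chains of the common gamma chain family, Il7r fell by 0.71 (0.744, 0.763 and 1.21 FPKM with GM-CSF, against 2.11, 2.02 and 2.16 FPKM untreated), while the TSLP receptor gene Crlf2, at 85.9 FPKM with GM-CSF and 82.4 FPKM untreated, Il2rb and Il15ra did not pass. None of 9 gp130 and IL-12 family chains reached the filter, and the highest, Lifr and Il12rb2, averaged 0.904 and 0.820 FPKM with GM-CSF and 0.929 and 0.908 FPKM untreated.

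Marker sums of other cell types in the same libraries were as follows. The sum of 11 macrophage and dendritic cell markers was 32.0 to 38.0 FPKM with GM-CSF and 48.1 to 62.5 FPKM untreated, and its 3 tested members fell. That of 7 innate lymphoid and NK cell markers was 4.90 to 5.78 FPKM with GM-CSF and 8.01 to 9.88 FPKM untreated, and both tested members fell. One of these is Il7r, the receptor chain gene described above. Mast cell markers overlapped, with 11.8 to 15.4 FPKM with GM-CSF and 14.6 to 26.1 FPKM untreated, 2 of 4 tested members lower and Tpsb2 at 0 in all libraries. Epithelial markers summed to 339 to 358 FPKM with GM-CSF and 274 to 304 FPKM untreated, mostly Olfm4, with 2 of 11 tested members higher and 5 lower. Stromal and endothelial markers summed to 118 to 133 FPKM with GM-CSF and 152 to 169 FPKM untreated, mostly Pecam1, with 1 of 2 tested members higher and 1 lower. The part of these cells in the receptor chain values was not tested.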
